A study of Rattus norvegicus with 30 samples.

Results

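The 8 genes described here belong to blood coagulation and to fibrinolysis, its counterpart: F3 (tissue factor), Tfpi (tissue factor pathway inhibitor), Thbd (thrombomodulin), Procr (the endothelial protein C receptor), Plat and Plau (the tissue-type and urokinase-type plasminogen activators), Plaur (the urokinase receptor) and Thbs1 (thrombospondin 1). They were chosen by symbol, as the rows of these names in a table of read counts and in a table of FPKM (fragments mapped per kilobase of transcript, scaled to the depth of the library), and were followed over all groups. They are 8 of the 22914 genes with counts, and all 8 were among the 15934 that passed the filter on low counts. The tables came from poly(A) RNA-seq of lung from 30 male Sprague Dawley rats, 8 weeks old, in 10 groups of 3, in a study of lung injury after severe acute pancreatitis (SAP) and its treatment with dexamethasone (DEX), a synthetic glucocorticoid, or emodin (Emo), a plant anthraquinone.

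All rats were fasted, anaesthetised and operated on, and lung was taken 6 or 24 hours later. In Sham-6h and Sham-24h rats the pancreas was only moved. Con-6h and Con-24h rats received saline in the biliopancreatic duct, and SAP-6h and SAP-24h rats received 5.0% sodium taurocholate there. DEX-6h, DEX-24h, Emo-6h and Emo-24h rats also received taurocholate, so no group received a drug without pancreatitis. DEX was given into a vein at 10 mg/kg. Emodin was given into the stomach at a dose that the sample descriptions give as 10 mg/kg and the treatment protocol as 40 mg/kg. Both drugs were given at 2 and 12 hours, so a rat examined at 6 hours had received a single dose. The other groups received saline into a vein in place of DEX and carboxymethylcellulose into the stomach in place of emodin. The lungs had been rinsed through the pulmonary artery before they were taken.

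Coagulation in tissue starts when tissue factor binds factor VII, and Tfpi blocks that complex. Thrombin that meets thrombomodulin on endothelium loses its clotting activity and activates protein C, a step that the protein C receptor speeds, and activated protein C destroys clotting cofactors. Clots are dissolved by plasmin, which Plat and Plau cut from plasminogen, and Plaur holds Plau on the cell surface. Thrombospondin 1, released from platelet granules and made by many cells, binds plasminogen activators and plasmin among other partners. In inflamed lung the balance of these activities is known to shift towards fibrin deposition.

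RefSeq promoter windows, each of 250 bases before to 50 after a gene's start on the rat build GRCr8, were matched for 5 of the 8 genes (Tfpi, which has 2 starts, Procr, Plau, Plaur and Thbs1). Procr, Plaur and Thbs1 are shown because their RNA rose in SAP-24h against both control groups, and Plau because its RNA went the other way. Each is printed 5′ to 3′ on the strand of the gene, and capitals mark the AP-1 letters TGANTCA, searched on both strands.
Plaur, chr1:89181113-89181412 (+): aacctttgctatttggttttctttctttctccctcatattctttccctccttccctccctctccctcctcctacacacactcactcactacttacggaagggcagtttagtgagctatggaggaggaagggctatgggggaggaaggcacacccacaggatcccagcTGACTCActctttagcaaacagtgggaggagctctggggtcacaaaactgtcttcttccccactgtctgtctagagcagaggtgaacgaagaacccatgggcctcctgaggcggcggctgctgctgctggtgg
Procr, chr3:164714477-164714776 (+): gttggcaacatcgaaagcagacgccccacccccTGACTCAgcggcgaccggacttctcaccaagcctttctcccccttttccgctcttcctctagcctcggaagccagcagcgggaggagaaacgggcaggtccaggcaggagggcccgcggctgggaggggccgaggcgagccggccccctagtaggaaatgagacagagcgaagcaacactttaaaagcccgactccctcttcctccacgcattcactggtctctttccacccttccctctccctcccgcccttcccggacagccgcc
Thbs1, chr3:125510000-125510299 (+): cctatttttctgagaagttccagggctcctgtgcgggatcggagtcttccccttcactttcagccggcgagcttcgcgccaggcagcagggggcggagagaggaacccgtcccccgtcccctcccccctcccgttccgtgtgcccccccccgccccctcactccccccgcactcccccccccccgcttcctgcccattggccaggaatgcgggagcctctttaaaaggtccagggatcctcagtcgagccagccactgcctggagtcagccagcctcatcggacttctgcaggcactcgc
Plau, chr15:3511938-3512237 (-): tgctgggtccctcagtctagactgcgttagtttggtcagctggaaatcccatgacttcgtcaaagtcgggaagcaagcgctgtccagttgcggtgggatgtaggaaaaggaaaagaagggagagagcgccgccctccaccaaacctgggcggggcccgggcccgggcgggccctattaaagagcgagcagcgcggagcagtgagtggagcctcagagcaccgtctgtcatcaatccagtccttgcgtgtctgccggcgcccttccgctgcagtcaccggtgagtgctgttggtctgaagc
The AP-1 letters stood once in the Plaur window, starting at -83 from the start site, and once in the Procr window, at -217. They were in none of the other windows of these genes, and in 7.33% of 33469 rat promoter windows of the same length. The Sp1 letters GGGCGG, on either strand, stood 3 times in the Plau window (-122, -104 and -87), 2 times in the Thbs1 window (-160 and -101), once in that of Procr (28) and once in 1 of the windows of Tfpi (-52), against 33.1% of all windows holding them. The windows held no match for the cyclic AMP response element TGACGTCA (in 1.83% of all windows), the NF-kB core GGANTTTCC (1.28%), the glucocorticoid receptor half-site TGTTCT (20.7%) or the TATA letters TATAAA (14.2%). A match of letters is a description and not a binding site.

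Libraries held 16813949 to 34692306 counted reads. In the study's mapping summary, every taurocholate library had a lower share of uniquely mapped reads than every Sham and Con library. This difference cannot be told apart from that of taurocholate, and its part in the results below was not tested. The lung was recognisable in every library, with the summed FPKM of 8 alveolar type 2 markers at 25100 to 47800, of 6 alveolar type 1 markers at 1370 to 3870 and of 9 endothelial markers at 1150 to 2370. Several libraries stood apart from their group for genes described here. SAP-24h replicate 1 had the highest Plat and Procr of all 30 libraries and the lowest alveolar type 1 sum, and DEX-24h replicate 3 had the highest F3 and Thbs1. Results that rest on these libraries are given with and without them. Neutrophil markers (8 genes, none with a group mean of 0) summed to 12600, 4520 and 16400 FPKM in SAP-24h, against 1480, 203 and 9280 in Sham-24h and 958, 105 and 191 in Con-24h, and their part in the results below was not tested. In a piece of lung, fewer cells of a type and less RNA per cell cannot be told apart.

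Per unit of length, the 8 genes covered a wide span of levels. Thbd, Plat and F3 were among the most abundant transcripts of the lung, with mean FPKM above those of 98.2%, 97.8% and 94.0% of protein-coding genes. Procr (85.0%) and Plaur (83.8%) followed, and Thbs1 (70.3%), Plau (63.9%) and Tfpi (63.7%) were lower. Between the highest and the lowest library the level differed most for Thbs1 (10.3-fold), Plat (9.4-fold) and Plau (7.76-fold) and least for Thbd (2.41-fold).

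**Figure D1:**
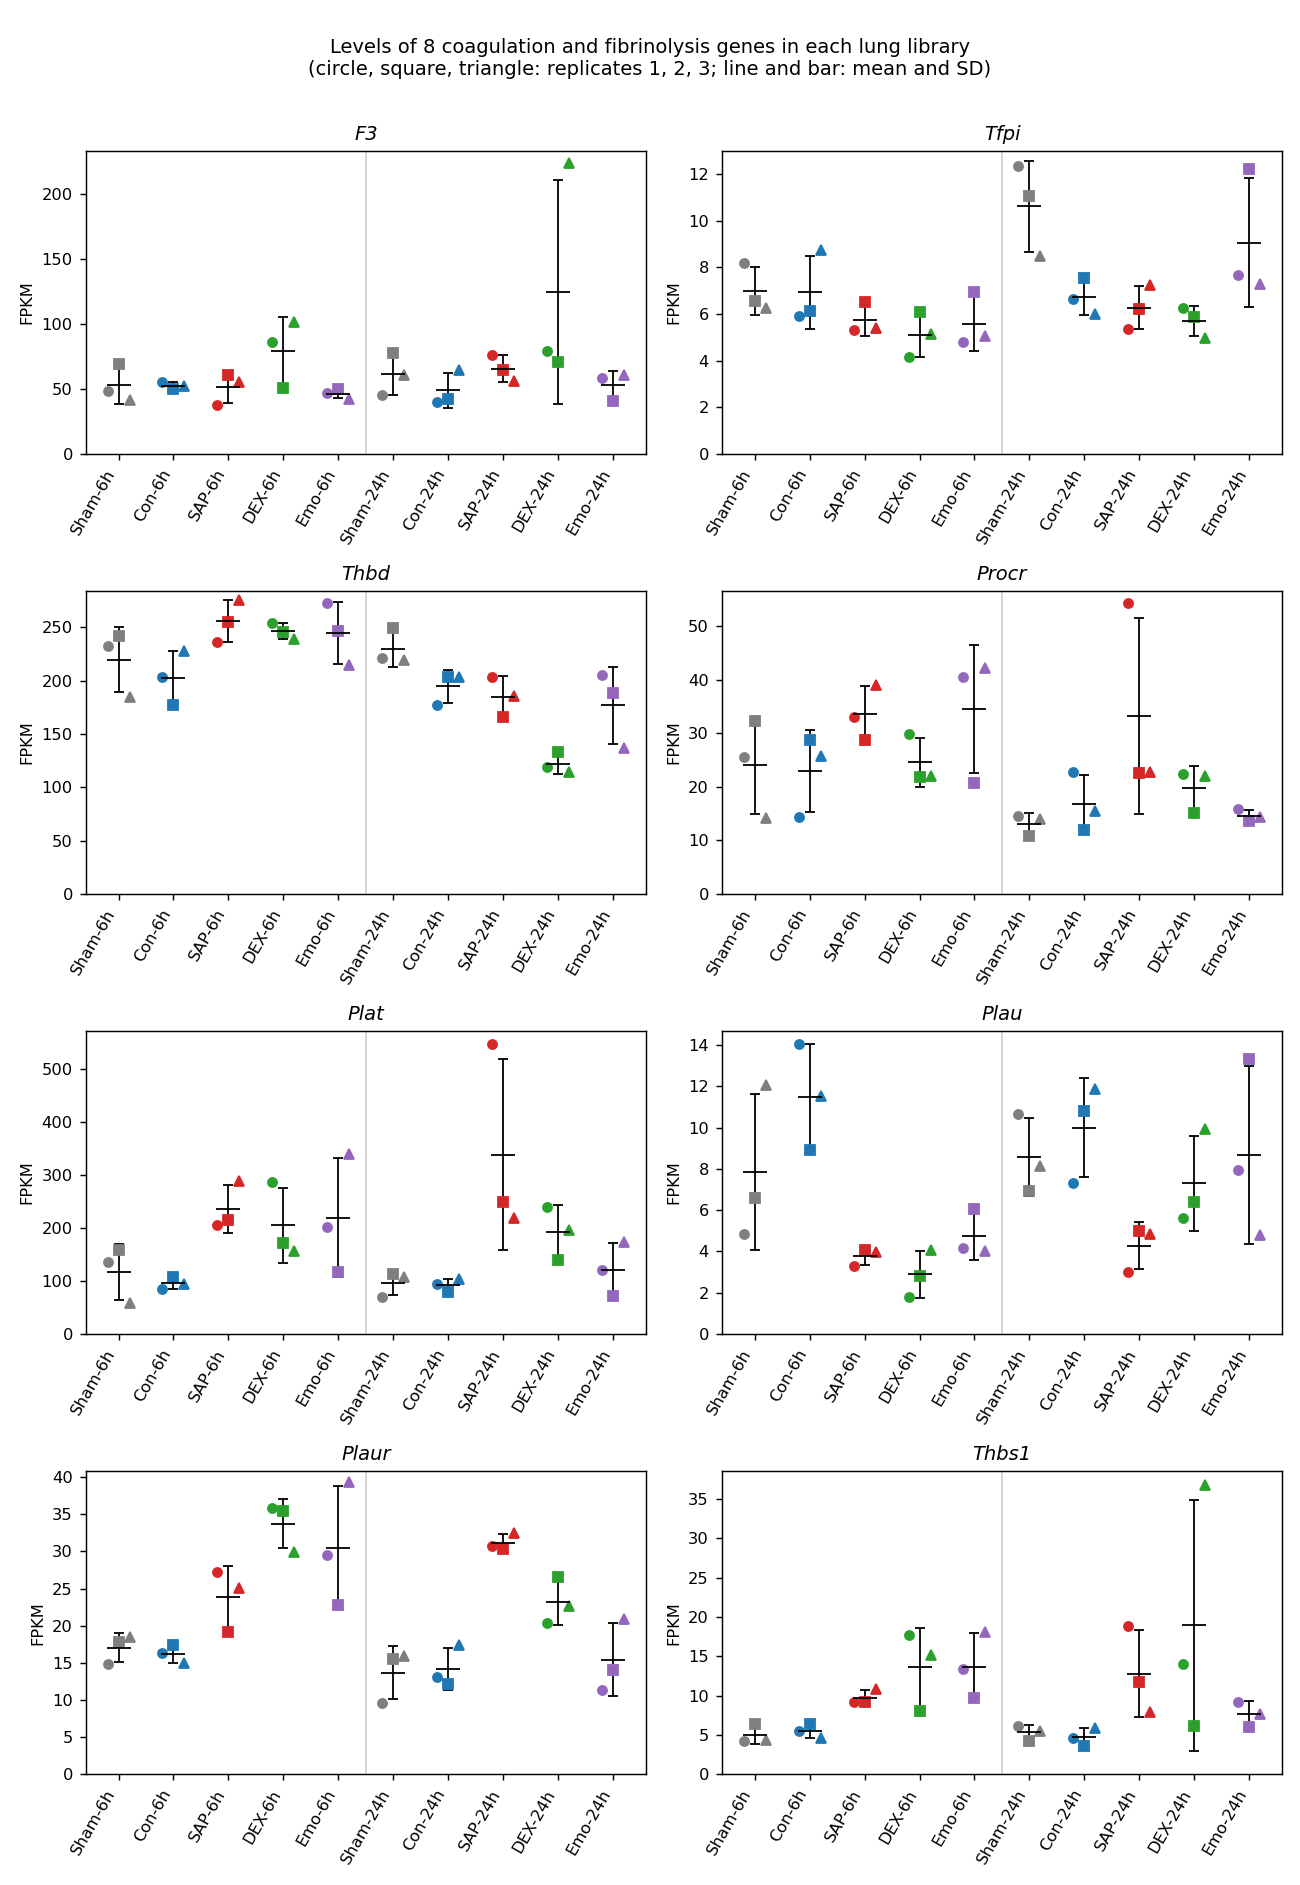
FPKM (linear axis from 0) of the 8 genes in each library by group, with circles, squares and triangles for replicates 1, 2 and 3 and lines with bars for the mean and SD (n = 3 rats). Plat and Plaur were above both control groups in all 3 SAP-24h libraries, Plau was below them, and the highest F3 and Thbs1 values both came from DEX-24h replicate 3.

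F3, the membrane receptor and cofactor that starts coagulation, was called by edgeR in a single comparison, that between the drugs at 24 hours. F3 stood at 48.3, 69.1 and 41.3 FPKM in Sham-6h, 55.5, 49.5 and 52.0 in Con-6h and 37.5, 60.6 and 55.2 in SAP-6h. In DEX-6h it stood at 86.2, 50.8 and 102 and in Emo-6h at 46.7, 49.8 and 42.5. The DEX-6h values were all above those of Emo-6h, with a log2 difference (Emo-6h against DEX-6h) of -0.78 (SE 0.331, adjusted p = 0.218), and the other 6-hour groups overlapped. At 24 hours F3 was at 45.4, 77.3 and 60.4 in Sham-24h, 39.5, 42.5 and 64.5 in Con-24h and 76.3, 64.6 and 56.0 in SAP-24h. The DEX-24h lungs held 79.0, 70.4 and 224 and the Emo-24h lungs 58.2, 40.8 and 60.4 FPKM. DEX-24h replicate 3 was far above all other libraries, and the other DEX-24h values lay within the range of SAP-24h and Sham-24h or just above it. In Emo-24h against DEX-24h, F3 fell 2.43-fold (log2 -1.28, SE 0.334, adjusted p = 0.0178), with no overlap of the groups. Without DEX-24h replicate 3 the difference was -0.59 (adjusted p = 0.262), and the call was also lost without Emo-24h replicate 1 or 2. With the 2 groups fitted alone the adjusted p was 0.114. DEX-24h was 1.05 above Sham-24h on the log2 scale (SE 0.332, adjusted p = 0.0569), with overlapping groups, and F3 was called there by DESeq2 and by edgeR without Sham-24h replicate 2 or DEX-24h replicate 1 or 2, but not without DEX-24h replicate 3. SAP-24h differed from Sham-24h by 0.24 (95% interval of -0.45 to 0.92, adjusted p = 0.681). In the order of group means, from 124 ± 86.3 in DEX-24h to 46.3 ± 3.64 in Emo-6h (mean ± SD, n = 3), no 2 neighbours differed by more than the larger of their SDs.

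Tfpi, the inhibitor of the tissue factor complex, had its highest group mean in Sham-24h and its lowest in DEX-6h. Tfpi was at 8.18, 6.56 and 6.24 FPKM in Sham-6h, 5.92, 6.12 and 8.73 in Con-6h and 5.30, 6.53 and 5.40 in SAP-6h. It was at 4.14, 6.07 and 5.14 in DEX-6h and 4.78, 6.93 and 5.05 in Emo-6h. These ranges lay close together, and DEX-6h alone was below all Sham-6h libraries (log2 -0.41, adjusted p = 0.203). The Sham-24h lungs held 12.3, 11.1 and 8.48 FPKM, Con-24h 6.65, 7.54 and 5.98 and SAP-24h 5.37, 6.21 and 7.25. DEX-24h lungs held 6.25, 5.89 and 4.97 and Emo-24h lungs 7.68, 12.2 and 7.29. Every Con-24h, SAP-24h and DEX-24h library was below every Sham-24h library, and every Emo-24h library was above every SAP-24h (log2 0.38, adjusted p = 0.225) and DEX-24h library (log2 0.60, adjusted p = 0.0587), though neither difference passed. Against Sham-24h the log2 difference was -0.65 in Con-24h (SE 0.198, adjusted p = 0.0385), -0.63 in SAP-24h (SE 0.197, adjusted p = 0.0374) and -0.86 in DEX-24h (SE 0.198, adjusted p = 0.0097). All of these stayed short of the 2-fold limit, and since they share the Sham-24h rats they are not separate evidence. With the compared groups alone the adjusted p was 0.0864 (Con-24h), 0.112 (SAP-24h) and 0.0286 (DEX-24h). With 1 library left out, the Con-24h difference no longer passed in any of the fits, that of SAP-24h not without Sham-24h or SAP-24h replicate 1 or 2, and that of DEX-24h not without Sham-24h replicate 1 or DEX-24h replicate 3. SAP-24h differed from Con-24h by 0.02 (95% interval of -0.39 to 0.43). Emodin lungs held more Tfpi at 24 than at 6 hours (log2 0.66, SE 0.198, adjusted p = 0.0135), again under 2-fold. This difference no longer passed with these groups fitted alone (adjusted p = 0.0677) or without Emo-6h replicate 1 or 3 or Emo-24h replicate 2 (up to 0.165). Sham lungs differed by 0.62 (adjusted p = 0.0902).

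Thbd, the endothelial cofactor that turns thrombin towards protein C activation, was the steadiest of the 8 genes and was lowest in DEX-24h. Thbd was at 232, 242 and 184 FPKM in Sham-6h, 203, 177 and 227 in Con-6h and 236, 255 and 276 in SAP-6h. The drug groups held 254, 245 and 239 in DEX-6h and 273, 246 and 215 in Emo-6h. At that time SAP-6h was above every Con-6h library but overlapped Sham-6h. By 24 hours Thbd was at 221, 249 and 219 in Sham-24h, 177, 203 and 204 in Con-24h and 203, 166 and 186 in SAP-24h. DEX-24h lungs held 119, 133 and 114 and Emo-24h lungs 205, 188 and 137. All DEX-24h libraries were below all 27 other libraries. Against SAP-24h the difference in DEX-24h was -0.69 on the log2 scale (1.62-fold lower, SE 0.143, adjusted p = 0.00472), against Sham-24h -0.87 (adjusted p = 0.000727) and against DEX-6h -0.997 (adjusted p = 8.25e-05). With any 1 library left out, the adjusted p of these differences stayed at or below 0.0329, 0.0102 and 0.00114, and none reached 2-fold in the edgeR fit of all libraries. The difference from DEX-6h did pass 2-fold with RLE scaling and with DESeq2 (-1.02 in both), with these 2 groups fitted alone, and without DEX-6h replicate 3 or DEX-24h replicate 2. With only the compared groups fitted, the adjusted p was 0.0908 against SAP-24h and 0.0175 against Sham-24h. Emo-24h was above DEX-24h (log2 0.46, SE 0.143, adjusted p = 0.0455, or 0.105 with these groups alone) and below Emo-6h (-0.52, adjusted p = 0.00746). With 1 library left out, the adjusted p of these was up to 0.23 and 0.0534. The change of the DEX difference between 6 and 24 hours, -0.64 (SE 0.202), did not pass the test (adjusted p = 0.169). Thbd is expressed mainly by endothelium. The 9 endothelial markers summed to 1510 to 1600 FPKM in DEX-24h, against 1190 to 1510 (SAP-24h), 1150 to 1420 (Sham-24h), 1560 to 1850 (Con-24h) and 1780 to 2000 (DEX-6h). The sums were 1860 to 2370 in Emo-6h and 1200 to 1440 in Emo-24h. In DEX-24h against DEX-6h, 1 marker was called higher and 1 lower (Esam and Kdr), with a median log2 difference of 0.37. DEX-24h against SAP-24h called 1 lower (Esam), with a median of 0.17. Emo-24h against Emo-6h called 1 lower (Cldn5), with a median of -0.37. The part of these markers in the Thbd differences was not tested.

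Procr, which presents protein C to thrombomodulin, was higher in SAP-24h than in both control groups and lower in Emo-24h than in SAP-24h. Procr held 25.6, 32.3 and 14.3 FPKM in Sham-6h, 14.3, 28.7 and 25.8 in Con-6h and 33.1, 28.8 and 39.1 in SAP-6h. Levels were 29.9, 21.9 and 22.0 in DEX-6h and 40.6, 20.7 and 42.2 in Emo-6h. The Sham-6h and Con-6h values were widely spread, and SAP-6h passed no test against either (adjusted p of 0.553 and 0.558). At 24 hours Procr was at 14.6, 10.8 and 14.0 in Sham-24h and at 22.7, 12.0 and 15.6 in Con-24h. SAP-24h lungs held 54.5, 22.5 and 22.8, DEX-24h lungs 22.3, 15.1 and 22.0 and Emo-24h lungs 15.8, 13.7 and 14.4. SAP-24h replicate 1 was more than the other 2 SAP-24h libraries put together, and these 2 lay close to the highest Con-24h library and above all Sham-24h and Emo-24h libraries. Procr rose 2.83-fold in SAP-24h against Sham-24h (log2 1.50, SE 0.355, adjusted p = 0.0094) and by 1.15 (log2, adjusted p = 0.0227) against Con-24h. It fell 2.59-fold in Emo-24h against SAP-24h (log2 -1.37, SE 0.353, adjusted p = 0.0214). Without SAP-24h replicate 1 these were 0.88 (adjusted p = 0.0973), 0.51 (adjusted p = 0.299) and -0.76 (adjusted p = 0.164). The call against Con-24h was also lost without Con-24h replicate 2 or 3, and that of Emo-24h without Emo-24h replicate 1 or 2. In the emodin groups Procr fell from 6 to 24 hours (log2 -1.29, SE 0.353, adjusted p = 0.00726), a call that was kept with any library left out. DEX-24h was below SAP-24h in all libraries, but the difference of -0.87 did not pass (adjusted p = 0.13).

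Plat, the plasminogen activator that endothelium releases, had the largest rise among the 8 genes in SAP-24h. Plat was at 135, 158 and 58.1 FPKM in Sham-6h and 84.7, 108 and 94.7 in Con-6h. SAP-6h lungs held 205, 215 and 288, DEX-6h lungs 286, 172 and 156 and Emo-6h lungs 201, 116 and 339. Each SAP-6h library was above each Sham-6h and Con-6h library, yet the differences of 1.07 and 1.38 (log2) did not pass (adjusted p of 0.258 and 0.201). Plat was at 69.9, 113 and 108 in Sham-24h and 94.2, 79.0 and 103 in Con-24h. SAP-24h lungs held 547, 249 and 219, DEX-24h lungs 239.7, 139.6 and 197 and Emo-24h lungs 120.2, 71.7 and 173. Every SAP-24h library was above every Sham-24h, Con-24h and Emo-24h library. Plat rose 3.88-fold in SAP-24h against Sham-24h (log2 1.96, SE 0.426, adjusted p = 0.00565) and 4.09-fold against Con-24h (log2 2.03, SE 0.427, adjusted p = 0.00236). In Emo-24h it fell 3.14-fold against SAP-24h (log2 -1.65, SE 0.422, adjusted p = 0.0209). Without SAP-24h replicate 1 the difference was 1.36 against Sham-24h (adjusted p = 0.051) and -1.06 for Emo-24h (adjusted p = 0.13). The Emo-24h call was also lost without Emo-24h replicate 1 or 2, and the call against Con-24h was kept with any library left out, at 1.43 (adjusted p = 0.0245) without SAP-24h replicate 1, but not with these groups fitted alone (adjusted p = 0.0527). In DEX-24h the difference from SAP-24h was -0.94 (SE 0.415, adjusted p = 0.172), and the difference between the drugs (log2 -0.71, SE 0.413) did not pass either (adjusted p = 0.349).

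Plau, the activator that acts on cell surfaces, was the single one of the 8 genes called lower in SAP-24h, against Con-24h. Plau stood at 4.87, 6.59 and 12.1 FPKM in Sham-6h and 14.0, 8.91 and 11.6 in Con-6h. SAP-6h lungs held 3.30, 4.09 and 3.97, DEX-6h lungs 1.81, 2.80 and 4.05 and Emo-6h lungs 4.16, 6.06 and 4.0. All SAP-6h and DEX-6h libraries were below all control libraries of that time. Sham-24h lungs held 10.7, 6.93 and 8.14 and Con-24h lungs 7.32, 10.8 and 11.9. Plau was at 2.99, 5.01 and 4.85 in SAP-24h, 5.61, 6.38 and 9.93 in DEX-24h and 7.94, 13.3 and 4.80 in Emo-24h. SAP-24h was below both control groups without overlap, and DEX-24h was above SAP-24h. Plau fell 2.16-fold in SAP-24h against Con-24h (log2 -1.11, SE 0.347, adjusted p = 0.0251), while against Sham-24h the difference of -0.88 did not pass (adjusted p = 0.0949). Without SAP-24h replicate 1 the difference from Con-24h was -0.94 (adjusted p = 0.115), and the call was also lost without Con-24h replicate 2 or 3. At 6 hours it fell in DEX-6h against Sham-6h (log2 -1.42, SE 0.352, adjusted p = 0.0135), a call lost without Sham-6h replicate 3 or DEX-6h replicate 1, and with these 2 groups fitted alone (adjusted p = 0.102). SAP-6h was at -1.01 against Sham-6h (adjusted p = 0.195) and at -1.54 against Con-6h (adjusted p = 0.0693). In the DEX groups Plau rose from 6 to 24 hours by 1.36 on the log2 scale (SE 0.351, adjusted p = 0.00709), and this call was kept with any library left out. In that comparison 7 of 9 platelet markers (median log2 difference -1.65) and 5 of 10 fibroblast and smooth muscle markers (median -0.79) were called lower. Of 9 endothelial markers, 1 was called higher and 1 lower (Esam and Kdr). The part of these markers in the rise of Plau was not tested. The 128 to 876 reads of Plau per library were among the fewest of the 8 genes.

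Plaur, the receptor of urokinase on neutrophils, macrophages and other cells, was called higher in SAP-24h than in Sham-24h and Con-24h with any library left out. Plaur was at 14.8, 17.8 and 18.5 FPKM in Sham-6h and 16.3, 17.4 and 14.9 in Con-6h. SAP-6h lungs held 27.2, 19.2 and 25.1, DEX-6h lungs 35.9, 35.5 and 29.9 and Emo-6h lungs 29.5, 22.8 and 39.3. All 9 libraries with taurocholate at 6 hours were above the 6 without. At 24 hours Plaur was at 9.54, 15.5 and 15.9 in Sham-24h and 13.1, 12.1 and 17.4 in Con-24h. SAP-24h lungs held 30.8, 30.3 and 32.5, DEX-24h lungs 20.4, 26.6 and 22.7 and Emo-24h lungs 11.3, 14.1 and 20.9. The SAP-24h libraries were close to each other and above all others of that time, DEX-24h lay between them and the control groups, and Emo-24h overlapped the control groups. Plaur rose 2.48-fold in SAP-24h against Sham-24h (log2 1.31, SE 0.240, adjusted p = 0.00203) and by 1.26 against Con-24h (adjusted p = 0.00128). It fell 2.24-fold in Emo-24h against SAP-24h (log2 -1.16, SE 0.239, adjusted p = 0.00661), and without Emo-24h replicate 1 it was under 2-fold (-0.96, adjusted p = 0.0446). It rose in DEX-6h against Sham-6h (log2 1.03, SE 0.239, adjusted p = 0.00865), a call lost without Sham-6h replicate 1 (0.93, adjusted p = 0.0534) or DEX-6h replicate 1 or 2 (0.99 each, under 2-fold). Emo-6h was 0.88 above Sham-6h, short of 2-fold (adjusted p = 0.0434). With 1 library left out its adjusted p was up to 0.192, while without Emo-6h replicate 2 it was called (1.07, adjusted p = 0.0199). With these groups fitted alone the adjusted p was 0.219. DEX-24h was 0.80 above Sham-24h (adjusted p = 0.0426) and 0.52 below SAP-24h (log2 -0.52, SE 0.236, adjusted p = 0.189). The adjusted p against Sham-24h was up to 0.224 with 1 library left out, and 0.105 with these groups fitted alone.

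Plaur was also the gene whose difference between emodin-treated and untreated pancreatitis changed with time. At 6 hours Emo-6h was 0.35 above SAP-6h (log2, SE 0.236, adjusted p = 0.527), and at 24 hours it was 1.16 below SAP-24h. The test of the change between the times gave -1.51 (SE 0.336, adjusted p = 0.0251), the single call of edgeR among the 8 genes in the 3 tests of that kind. DESeq2 also called Procr in this test, and without Emo-6h replicate 2 edgeR called Plat, Procr and Plaur. The call was lost without SAP-6h replicate 2, Emo-6h replicate 1 or 3, or Emo-24h replicate 1 or 2, with values between -1.53 and -1.30 and adjusted p of 0.0546 to 0.0957. In the emodin groups themselves Plaur fell from 6 to 24 hours (log2 -1.02, SE 0.239, adjusted p = 0.00237), which was under 2-fold without Emo-6h replicate 3 or Emo-24h replicate 1 or 2. In the same comparison, where Procr fell too, 5 of 6 red blood cell markers (median log2 difference -3.41), 3 of 10 fibroblast and smooth muscle markers (1 more was higher) and 1 of 9 platelet markers (Gp9) were called lower. Of 9 endothelial markers, 1 was called lower (Cldn5) and 6 had an unadjusted p under 0.05 in edgeR, with a median log2 difference of -0.37. They summed to 1860 to 2370 FPKM in Emo-6h and 1200 to 1440 in Emo-24h. The part of all these markers in both falls was not tested. Plat (-1.54, adjusted p = 0.115), Procr (-1.40, adjusted p = 0.0916) and Thbs1 (-1.42, adjusted p = 0.153) had values of like size in the test of the change, with larger SEs, and did not pass in the edgeR fit of all libraries.

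Neutrophils carry Plaur, and their markers were set beside it. Their summed level at 24 hours was 203 to 9280 FPKM (Sham-24h), 105 to 958 (Con-24h), 4520 to 16400 (SAP-24h), 1020 to 2990 (DEX-24h) and 4280 to 6620 (Emo-24h). Of the 8 markers, none was called in SAP-24h against Sham-24h by edgeR (3 at an unadjusted p under 0.05, median log2 difference 1.71), and all 8 were called higher against Con-24h (median 4.48). Against SAP-24h, 1 (Camp) was called lower in Emo-24h (median -1.29) and 2 (Camp and Ngp) in DEX-24h (median -2.47). The part of neutrophils in the Plaur differences was not tested. Macrophage and monocyte markers (10 genes) summed to 24400 to 31700 in SAP-24h against 18100 to 25900 in Sham-24h, where Marco was listed at 0, and 17400 to 20800 in Emo-24h.

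**Figure D2:**
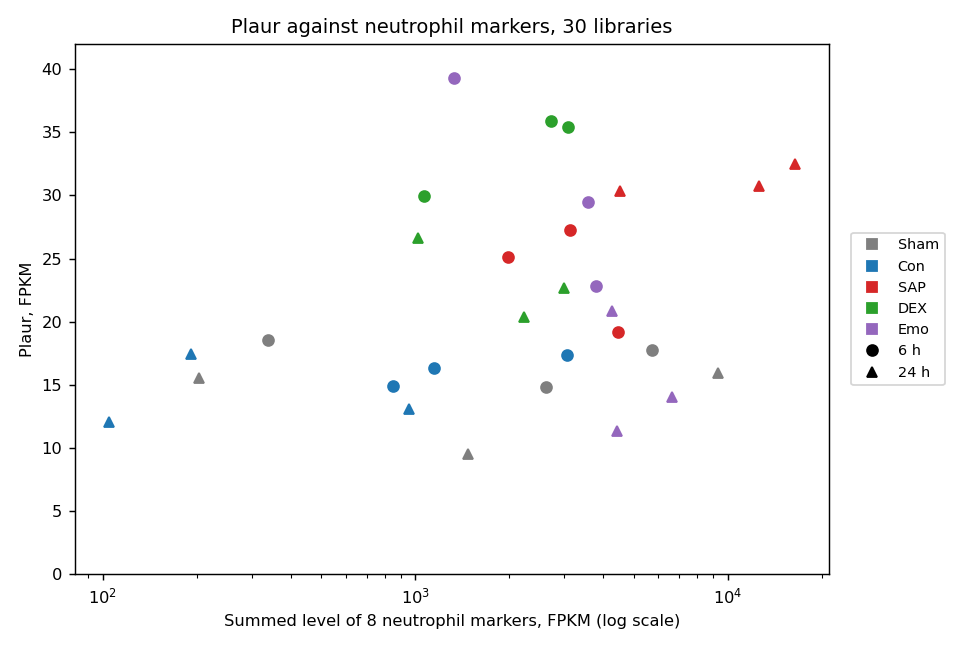
Plaur (FPKM, linear axis from 0) against the summed FPKM of 8 neutrophil markers (log axis), 1 point per library, with colours for the treatments and circles and triangles for 6 and 24 hours. At 24 hours the marker sums were 4520 to 16400 in SAP-24h, where Plaur was at 30.3 to 32.5, and 203 to 9280 in Sham-24h, where it was at 9.54 to 15.9.

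Thbs1, a matrix glycoprotein that binds plasminogen activators, rose in SAP-24h, in DEX-6h and in DEX-24h. Thbs1 was at 4.24, 6.35 and 4.39 FPKM in Sham-6h and 5.54, 6.43 and 4.59 in Con-6h. SAP-6h lungs held 9.20, 9.18 and 10.8, DEX-6h lungs 17.7, 8.02 and 15.2 and Emo-6h lungs 13.3, 9.67 and 18.1. Again all 9 taurocholate libraries at 6 hours were above the 6 others. Sham-24h lungs held 6.16, 4.21 and 5.55 and Con-24h lungs 4.58, 3.57 and 5.91. It was at 18.8, 11.8 and 7.85 in SAP-24h, 14.0, 6.11 and 36.9 in DEX-24h and 9.22, 5.94 and 7.70 in Emo-24h. SAP-24h did not overlap the control groups, and DEX-24h ran from a control-like value to the highest of all 30 libraries. Thbs1 rose 2.69-fold in SAP-24h against Sham-24h (log2 1.43, SE 0.428, adjusted p = 0.0318) and by 1.60 against Con-24h (SE 0.432, adjusted p = 0.011). Without SAP-24h replicate 1 these were 0.98 (adjusted p = 0.179) and 1.15 (adjusted p = 0.0872), and the calls were also lost without any 1 of the Sham-24h libraries and without Con-24h replicate 2, respectively. In DEX-6h it rose against Sham-6h by 1.49 (SE 0.430, adjusted p = 0.0298), a call lost without Sham-6h replicate 1 or 3 or DEX-6h replicate 1 or 3. Emo-6h was 1.50 above Sham-6h with the groups apart but an adjusted p of 0.0538. In DEX-24h it rose against Sham-24h by 1.87 (SE 0.433, adjusted p = 0.0097), and in Emo-24h it fell against DEX-24h (log2 -1.37, SE 0.426, adjusted p = 0.0453). Without DEX-24h replicate 3 these were 1.00 (adjusted p = 0.156) and -0.50 (adjusted p = 0.558), and the call between the drugs was also lost without any 1 of the Emo-24h libraries. Platelets store Thbs1, and 9 platelet markers, none with a group mean of 0, summed to 111 to 345 FPKM in SAP-6h and 129 to 258 in DEX-6h against 46.7 to 118 in Sham-6h. At 24 hours they summed to 37.6 to 143 (SAP-24h) and 35.8 to 65.7 (Sham-24h). Of the 9 markers, 5 were called higher in DEX-6h than in Sham-6h, and their part in the Thbs1 result was not tested.

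The comparison of pancreatitis with the control operations, fitted with edgeR over all genes, called 4 of the 8 genes in SAP-24h against Sham-24h, all higher (Plat, Procr, Thbs1 and Plaur), while 5% of all genes tested were called. A gene was called at a Benjamini-Hochberg adjusted p under 0.05 and a change of at least 2-fold. SAP-24h against Con-24h called 5 of 8, with the same 4 higher and Plau lower, against 6.91% of all genes. The median of the 8 log2 differences was 0.77 and 0.85 in these comparisons, beside -0.03 and -0.01 over all genes, and both share the SAP-24h rats. When only the compared groups were fitted, no gene was called against Sham-24h (adjusted p of 0.0689 for Plaur, 0.101 for Plat, 0.109 for Thbs1 and 0.123 for Procr) and Plaur alone was called against Con-24h (adjusted p = 0.0291). Of 10 fibroblast and smooth muscle markers, which summed to 388 to 585 FPKM (SAP-24h) and 846 to 1060 (Sham-24h), 3 were called lower in SAP-24h than in Sham-24h (Lum, Col1a2 and Col3a1) and 8 had an unadjusted p under 0.05, with a median log2 difference of -0.73. In Emo-24h they summed to 771 to 1040, with a median of 0.76 against SAP-24h, and their part in the results was not tested. The control operations themselves differed in none of the 8 genes by this rule at 24 hours (Con-24h against Sham-24h, 1% of all genes called), where DESeq2 also called none and 1 gene (Tfpi) passed an unadjusted p under 0.05.

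At 6 hours fewer genes passed. In SAP-6h against Sham-6h none of the 8 was called, beside 0.22% of all genes, although 4 had an unadjusted p under 0.05 and DESeq2 called none. SAP-6h against Con-6h called none (0.163% of all genes), with 5 at an unadjusted p under 0.05 and 1 called by DESeq2. Con-6h against Sham-6h called none of the 8 and 0% of all genes, and DESeq2 called none of the 8 and 7 of all genes. In edgeR none of the 8 had an unadjusted p under 0.05, and 286 of all genes had one together with a change of at least 2-fold. DEX-6h against Sham-6h called 3 of 8, with Plaur and Thbs1 higher and Plau lower, beside 3.97% of all genes. Emo-6h against Sham-6h called none (0.477% of all genes), with 3 at an unadjusted p under 0.05 and 1 called by DESeq2. The change of the SAP against Sham difference between the times called none of the 8 and 0.0314% of all genes, with 2 at an unadjusted p under 0.05 and none called by DESeq2.

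The drugs were compared with untreated pancreatitis and with each other. Emo-24h against SAP-24h called 3 of 8, all lower (Plat, Procr and Plaur), beside 3.19% of all genes, and the median log2 difference of the 8 was -0.70 against 0.02 over all genes. DEX-24h against SAP-24h called none, beside 3.73% of all genes, with 5 at an unadjusted p under 0.05, 1 of them (Thbd) at an adjusted p under 0.05, and none called by DESeq2. This does not show that the drugs differ for Plat, Procr or Plaur, since Emo-24h against DEX-24h did not pass for these (adjusted p of 0.349, 0.463 and 0.0949). That comparison called 2 of 8, F3 and Thbs1, both lower in Emo-24h, beside 5.06% of all genes. DEX-24h against Sham-24h called 1 (Thbs1, higher) beside 4.15% of all genes. Emo-24h against Sham-24h called none of the 8 and 0% of all genes, and DESeq2 called none of either. In edgeR 1 of the 8 (Thbd, -0.41) had an unadjusted p under 0.05. With the 2-fold limit kept beside that p, none of the 8 and 207 of all genes passed. The 3 calls of Emo-24h against SAP-24h rest on the same SAP-24h rats as the calls against Sham-24h, and none was left when the 2 groups were fitted alone (adjusted p of 0.109 for Plaur, 0.145 for Procr and 0.15 for Plat).

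**Figure D3:**
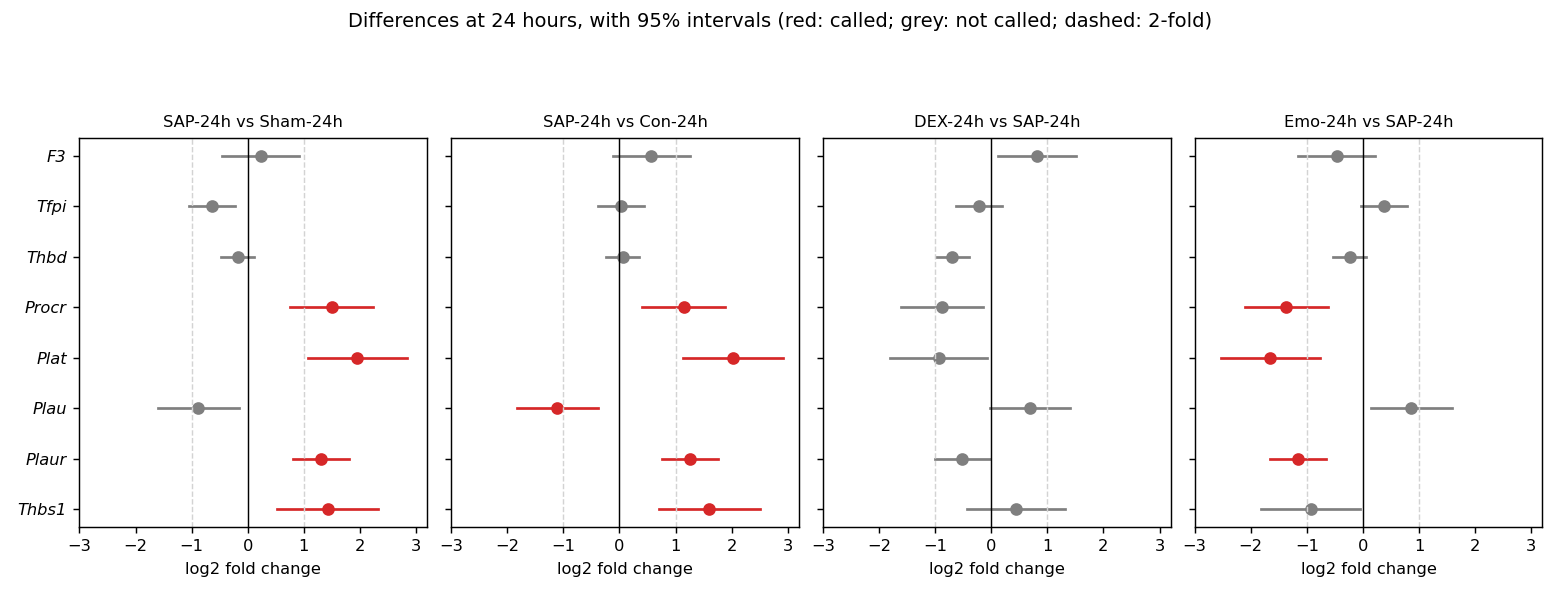
Log2 fold changes of the 8 genes in 4 comparisons at 24 hours, with 95% intervals from the edgeR fit of 30 libraries, red where called, grey where not, and dashed lines at 2-fold. Plat was 1.96 above Sham-24h and 2.03 above Con-24h in SAP-24h, and -1.65 in Emo-24h against SAP-24h, while no gene was called in DEX-24h against SAP-24h.

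At 6 hours no comparison of a drug with SAP, or between the drugs, called any of the 8 genes. DEX-6h against SAP-6h called none (0.515% of all genes), with 1 (Plaur, 0.50) at an unadjusted p under 0.05. Emo-6h against SAP-6h called none (0.0251% of all genes) and had none at an unadjusted p under 0.05. Emo-6h against DEX-6h called none (1.41% of all genes), with 1 (F3) at an unadjusted p under 0.05. DESeq2 called none of the 8 in these 3 comparisons. The change of the DEX difference between the times called none and 0.138% of all genes, with 3 at an unadjusted p under 0.05 and none by DESeq2, and the change of the emodin difference called 1 (Plaur) beside 1.68% of all genes. Within a treatment, Sham (0.257% of all genes), Con (0.00628%) and SAP (2.42%) called none of the 8 between 6 and 24 hours, with 2, 0 and 1 at an unadjusted p under 0.05, and DESeq2 called none there. The DEX groups called 1 (Plau, higher at 24 hours) beside 7.14% of all genes, and the emodin groups 2 (Procr and Plaur, lower at 24 hours) beside 9.41%.

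Over the 30 libraries some of the 8 genes moved together. The figures given are Pearson's r of log2(FPKM + 1), as a description with no p, since libraries of a group share their treatment. Procr went up and down with Plat (r = 0.762, Spearman's rho 0.712), also after each group's mean was removed (r = 0.752). Plat and Plau went opposite ways (r = -0.817, rho -0.844), and did so within groups as well (r = -0.754). Leaving out the 2 libraries farthest from the median of the gene named first gave 0.716 for Procr with Plat and -0.804 for Plat with Plau. Plat and Plaur had an r of 0.766, which was 0.391 within groups, and Plaur and Thbs1 had 0.644, which was 0.0183 within groups. F3 and Thbs1 had an r of 0.622, which was 0.71 within groups and 0.333 without the 2 libraries.

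**Figure D4:**
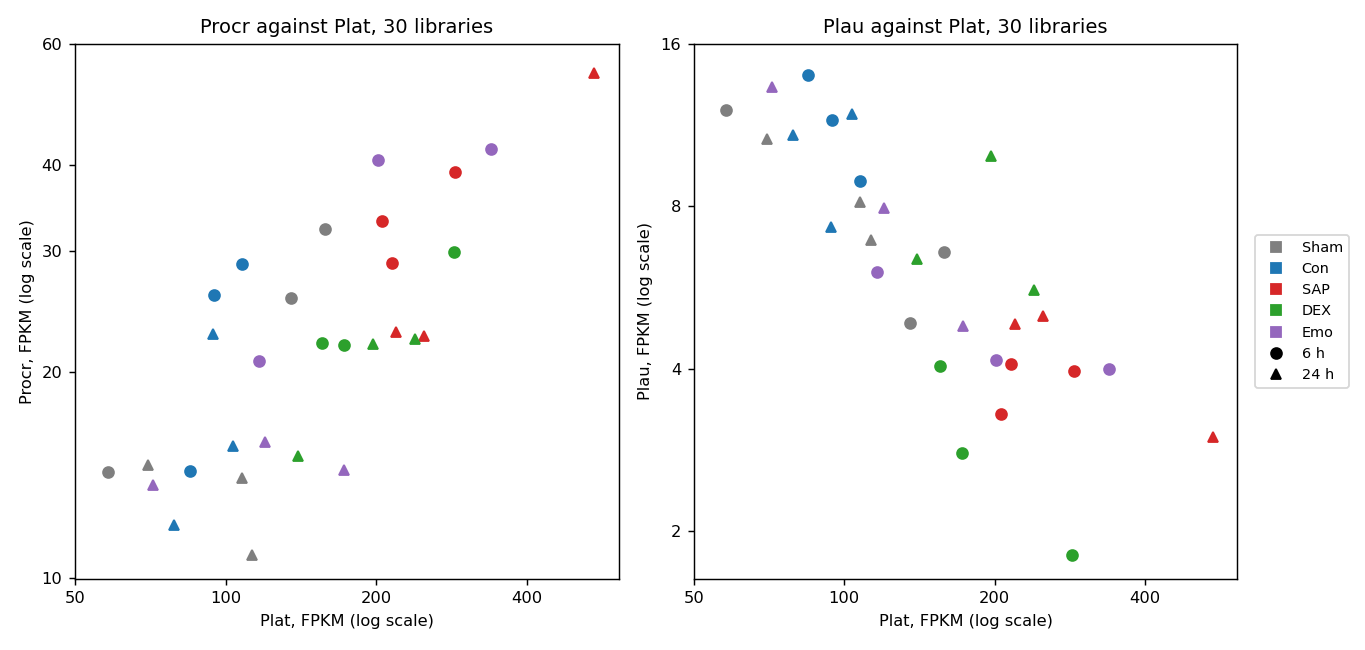
Procr (left) and Plau (right) against Plat, all in FPKM on log axes, 1 point per library, with colours for the treatments and circles and triangles for 6 and 24 hours. Over the 30 libraries Procr rose with Plat (r = 0.762 of log2(FPKM + 1)) and Plau fell (r = -0.817).

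The genes whose levels over the 30 libraries were most like those of each gene were listed by the same r, among genes with a mean of at least 1 FPKM. For Plat they were Xdh (0.914), Ackr3 (0.893) and Enc1 (0.882), and for Procr Stat3 (0.890), Arid5a (0.883) and Gpr4 (0.878). Plau was closest to Wnt7a (0.924), Plxna1 (0.907) and Arhgap35 (0.882), and Plaur to Sema7a (0.905), Map3k6 (0.882) and Mt1 (0.876). Those of Tfpi were Pdgfd (0.857), Nudcd2 (0.856) and Commd10 (0.837), and those of Thbd were Col6a5 (0.838), Igfbp4 (0.829) and Fbln1 (0.817). F3 (Mpzl3 0.819, Myo10 0.792, Mgat4a 0.776) and Thbs1 (PVR 0.81, Tuba1c 0.806, Itpkc 0.804) had the least similar companions. With Spearman's rho in place of r, the value for F3 with Mpzl3 was 0.70 and that for Thbd with Col6a5 was 0.686.

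Of 45 other genes of coagulation and fibrinolysis on fixed lists, 40 were matched and 31 passed the filter, 13 clotting factors and cofactors, 4 protease-activated receptors, 5 inhibitors and 9 genes of fibrinolysis. In SAP-24h against Sham-24h, 6 of the 31 were called, 4 higher and 2 lower (5% of all genes called), and against Con-24h 11, 10 higher and 1 lower (6.91% of all genes). DEX-24h against SAP-24h (3.73% of all genes) and Emo-24h against SAP-24h (3.19%) each called the same 3, all lower (Fgg, Tfpi2 and F2rl3). With a replicate block, Tfpi2 was not called in Emo-24h against SAP-24h. At 6 hours 1 was called in SAP-6h against Sham-6h (F2rl3, beside 0.22% of all genes), 1 in DEX-6h against SAP-6h (Plg, beside 0.515%) and none in Emo-6h against SAP-6h (0.0251%), where 6 had an unadjusted p under 0.05 and DESeq2 called none. The median log2 difference of the 31 in SAP-24h against Sham-24h was 0.14, beside -0.03 over all genes.

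F2rl3, a receptor that thrombin activates by cutting it, was called higher in SAP than in Sham at both times. F2rl3 was at 0.48, 0.75 and 0.68 FPKM in Sham-6h and 0.56, 0.66 and 0.69 in Con-6h. It was at 1.76, 1.81 and 1.90 in SAP-6h, 1.85, 2.37 and 1.86 in DEX-6h and 1.41, 1.02 and 1.32 in Emo-6h. All 9 taurocholate libraries at 6 hours were above the 6 others. At 24 hours it was at 0.56, 1.08 and 0.57 in Sham-24h and 0.48, 0.75 and 0.47 in Con-24h. SAP-24h lungs held 1.36, 2.37 and 2.62, DEX-24h lungs 0.91, 0.66 and 0.87 and Emo-24h lungs 0.57, 0.49 and 0.51. SAP-24h was above every other group of that time, and both drug groups lay at the level of the control groups. F2rl3 rose in SAP-6h against Sham-6h (log2 1.56, adjusted p = 0.00773) and in SAP-24h against Sham-24h (log2 1.63, adjusted p = 0.000938), and fell in DEX-24h (log2 -1.45, adjusted p = 0.00149) and in Emo-24h (log2 -2.15, adjusted p = 0.000255) against SAP-24h. The 24-hour calls were kept with any library left out, and that of SAP-6h was lost without Sham-6h replicate 1 or 3. With the compared groups fitted alone, the adjusted p was 0.0925 for SAP-6h and 0.097 for SAP-24h against Sham, 0.0671 for Emo-24h and 0.0453 for DEX-24h against SAP-24h. F2rl3 is carried by platelets, and in SAP-6h against Sham-6h none of the 9 platelet markers was called, 8 had an unadjusted p under 0.05 and their median log2 difference was 1.87. That median was 0.72 in SAP-24h against Sham-24h, with none called and none at an unadjusted p under 0.05, and the part of platelets in the F2rl3 results was not tested. The 6 red blood cell markers summed to 8140 to 12600 FPKM in SAP-6h against 972 to 4940 in Sham-6h, with none called, 6 at an unadjusted p under 0.05 and a median log2 difference of 2.14, and their part was not tested either. The emodin difference changed with time by -1.60 (SE 0.359, adjusted p = 0.0251), a call lost without any 1 of 5 libraries (adjusted p up to 0.0899). F2r, the main thrombin receptor of endothelium, differed by 0.03 in SAP-24h against Sham-24h (adjusted p = 0.943).

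Among the other named genes of the pathway, Fgg, the gamma chain of fibrinogen, fell in Emo-24h (22.4 ± 1.5 FPKM, log2 -1.35, adjusted p = 0.00671, a call kept with any library left out) and in DEX-24h (25.3 ± 6.82, log2 -1.11, adjusted p = 0.0168) against SAP-24h (51.8 ± 17.3, SD, n = 3). The DEX-24h call was lost without DEX-24h replicate 1 or SAP-24h replicate 2 or 3. Neither Fgg call was made with the compared groups fitted alone. Fga and Fgb, the other fibrinogen chains, had 40, 5 and 9 and 33, 2 and 12 reads in SAP-24h, against 0, 0 and 1 and 0, 0 and 9 in Sham-24h, so that only their reads are given. Despite these few reads, Fga is among the 4 genes called higher against Sham-24h, and both are among the 10 called higher against Con-24h. The Fga call against Sham-24h was lost without SAP-24h replicate 1 or Sham-24h replicate 1 or 2. Tfpi2, a relative of Tfpi that inhibits plasmin, was called higher in SAP-24h than in Sham-24h (log2 3.00, adjusted p = 0.0302), but on SAP-24h replicate 1 (513 reads, against 10 and 55 in the other 2). Without that library the difference was 0.32 (adjusted p = 0.831), and in DEX-24h and Emo-24h against SAP-24h -1.50 (adjusted p = 0.259) and -0.54 (adjusted p = 0.702).

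Serpinf2, the main inhibitor of plasmin, rose in SAP-24h against Sham-24h (log2 1.87, adjusted p = 0.0243, 63, 32 and 26 reads against 16, 5 and 15), but not without SAP-24h replicate 1 (1.31, adjusted p = 0.146) or Sham-24h replicate 2. Plgrkt, a plasminogen receptor, fell (2.42 ± 0.71 against 5.61 ± 0.974 FPKM, log2 -1.10, adjusted p = 0.0177), but not without SAP-24h replicate 1 (-0.93, adjusted p = 0.0871) or Sham-24h replicate 2. F11, a clotting factor made mainly in liver, fell as well (1.88 ± 0.471 against 4.15 ± 0.78, log2 -1.02, adjusted p = 0.0181), a call lost without any 1 of 4 libraries and not made by DESeq2. Against Con-24h it fell by 1.07 on the log2 scale (adjusted p = 0.00812), a call that DESeq2 made too and that was lost without SAP-24h replicate 1 or Con-24h replicate 1. Plg, plasminogen itself, had only 3 to 25 reads per library, and its call in DEX-6h against SAP-6h (log2 -2.05, adjusted p = 0.0313) was lost without any 1 of 5 libraries and not made by DESeq2, with no filter on low counts or with these groups fitted alone. DESeq2 and the fit of these groups alone called Serpind1 there instead, a liver-made inhibitor of thrombin that lies outside the rule for named genes and was added after its values were seen. Serpind1 had 503, 521 and 401 reads in DEX-6h against 104, 141 and 52 in SAP-6h (log2 2.06, SE 0.549, adjusted p = 0.0725 in edgeR), and edgeR called it higher in DEX-6h than in Sham-6h (log2 2.63, adjusted p = 0.00511) and lower in Emo-6h than in DEX-6h (log2 -2.56, adjusted p = 0.0151). Vwf, the adhesive protein of endothelium and platelets, was at 71.0 ± 5.18 in SAP-24h and 62.9 ± 10.8 in Sham-24h (log2 0.31, adjusted p = 0.336). Serpine2, protease nexin 1, differed by 0.14 in SAP-24h against Sham-24h (adjusted p = 0.767) and rose in DEX-6h against Sham-6h (24.3 ± 2.26 against 12.4 ± 3.05, log2 1.01, adjusted p = 0.0135).

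**Figure D5:**
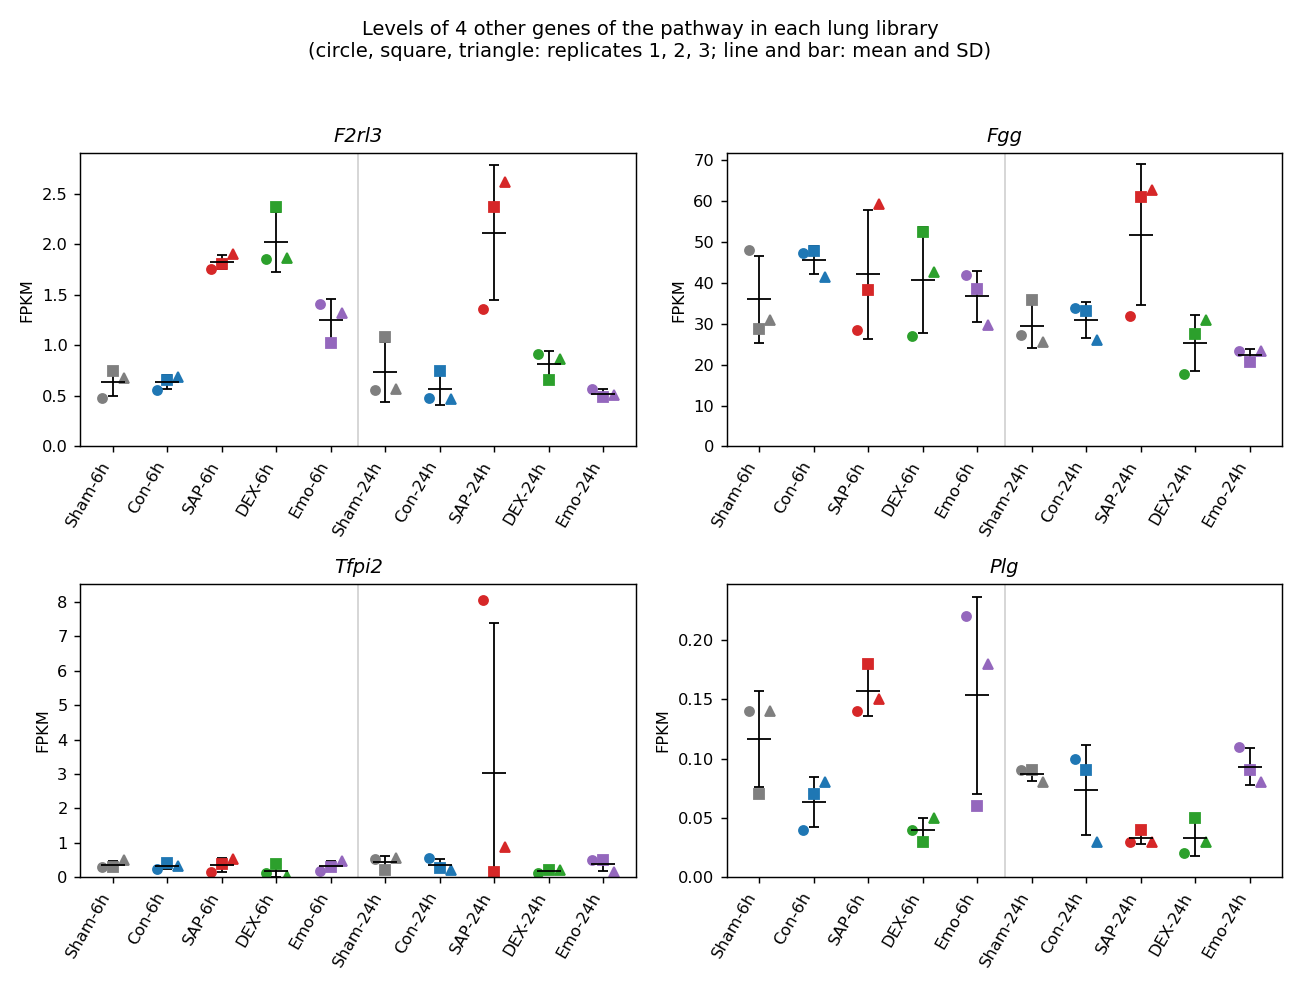
FPKM (linear axes from 0) of F2rl3, Fgg, Tfpi2 and Plg in each library by group, with circles, squares and triangles for replicates 1, 2 and 3 and lines with bars for the mean and SD (n = 3 rats). F2rl3 was raised in all SAP-24h libraries. Tfpi2 was far the highest in SAP-24h replicate 1 (513 reads, against 10 and 55 in replicates 2 and 3), and the mean of Fgg was 51.8 in SAP-24h against 22.4 in Emo-24h.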

How the data were processed

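Lung RNA of 30 rats was sequenced from poly(A) RNA in directional libraries. Per the labels, the authors used bcl2fastq, TopHat2 and edgeR. The counting program, and whether it used strand, is not given in the sources used here. The authors deposited a table of raw counts and a table of FPKM, both on a rat Ensembl annotation, and the 8 genes were read from both by symbol. From the deposited counts, edgeR 4.0.16 (R 4.3.3) was run with its default filter on low counts (at least 10 reads, and 15 in total), TMM scaling, 1 quasi-likelihood model of 10 groups and 30 libraries (20 residual degrees of freedom) and Benjamini-Hochberg adjustment over 15934 genes. Calls needed at least 2-fold and an adjusted p under 0.05. The model gave 21 comparisons and 3 tests of a change between times. The deposited FPKM were printed per library, with means ± SD over 3 rats, and log2(FPKM + 1) was used for correlations (numpy 2.4.6, scipy 1.17.1). The fit was tested on simulated data. Log2 differences come from the counts, levels from the FPKM. Intervals are 95% intervals of the fit.

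The 8 genes and all lists were chosen with earlier results of these data known. The pathway genes named were those called in SAP against Sham, in a drug against SAP or in a test of change between times (at most 12), with Vwf, F2r, Plg, Serpine2 and Fgb whatever their call, and 1 further gene of that rule is not reported here. Unmatched symbols included F13b, Kng1, Kng2, Serpina5 and Adamts13, and among markers Pecam1 and Gp1bb. Promoters came from RefSeq (GRCr8). The alternatives were DESeq2 1.42.0, RLE scaling, no filter, the compared groups alone, no fold limit, an unadjusted p, a replicate block, TMM CPM per kilobase, another pseudocount, Spearman correlation, and each library left out. Leaving libraries out for the pathway genes was chosen after seeing the data.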

Additional observations from a re-analysis of the deposited data

Results flagged for a closer look

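The log2 difference of Plaur between Emo and SAP changed from 6 to 24 hours by -1.51 (SE 0.336, adjusted p = 0.0251, edgeR), by a test of the difference between the times. F2rl3 changed between the times by -1.60 (SE 0.359, adjusted p = 0.0251) in the same test. Both calls were lost when the SAP and Emo groups were fitted alone (adjusted p of 0.127 and 0.1).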

How the results depend on the processing

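The number of the 8 genes called was the same with no filter on low counts and with the replicate block in all 24 comparisons and tests of change, for example 4 in SAP-24h against Sham-24h with the replicate block. Replicate numbers did not pair the rats (mean r of same-numbered libraries -0.00848, of others 0.00449). With DESeq2, 1 gene was called in SAP-6h against Con-6h, 1 in Emo-6h against Sham-6h, 2 in DEX-24h against Sham-24h, 2 in DEX-24h against DEX-6h and 2 in the emodin change with time. RLE scaling gave 2 in DEX-24h against DEX-6h. With the compared groups fitted alone, 1 was called in SAP-6h against Con-6h, 2 in DEX-6h against Sham-6h, 0 in SAP-24h against Sham-24h, 1 in SAP-24h against Con-24h, 0 in Emo-24h against SAP-24h, 0 in Emo-24h against DEX-24h, 0 in DEX-24h against Sham-24h, 2 in DEX-24h against DEX-6h and 0 in the emodin change with time. An unadjusted p under 0.05, with the 2-fold limit kept, gave 3 in SAP-6h against Sham-6h, 2 in SAP-6h against Con-6h, 1 in Emo-6h against Sham-6h, 3 in DEX-24h against Sham-24h, 2 in the DEX change with time and 4 in the emodin change. With no fold limit, 1 was called in Emo-6h against Sham-6h, 1 in Con-24h against Sham-24h, 1 in DEX-24h against SAP-24h, 4 in DEX-24h against Sham-24h, 2 in DEX-24h against DEX-6h and 4 in Emo-24h against Emo-6h. Leaving out 1 library gave 0 to 3 in DEX-6h against Sham-6h, 0 to 2 in Emo-6h against Sham-6h, 1 to 4 in SAP-24h against Sham-24h, 2 to 5 in SAP-24h against Con-24h, 0 to 3 in Emo-24h against SAP-24h, 0 to 2 in Emo-24h against DEX-24h, 0 to 2 in DEX-24h against Sham-24h, 1 to 2 in DEX-24h against DEX-6h, 1 to 4 in Emo-24h against Emo-6h and 0 to 3 in the emodin change with time. The fits of the compared groups alone hold fewer samples, and the causes of all these changes were not tested. Of the 31 other pathway genes, with the compared groups alone 0 were called in SAP-24h against Sham-24h, 2 in SAP-24h against Con-24h, 1 in DEX-24h against SAP-24h and 0 in Emo-24h against SAP-24h. With the replicate block 5 were called in SAP-24h against Sham-24h and 2 in Emo-24h against SAP-24h, with Tfpi2 lost in both. Of 80 group means, 79 moved by less than 1 SD with TMM CPM per kilobase. Few reads limit the values of Plg (3 to 25 per library), Fga and Fgb.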
